A study of Arabidopsis thaliana with 10 samples.

Results

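The genes described here are 4 auxin genes of Arabidopsis thaliana. GH3.3 (AT2G23170), GH3.17 (AT1G28130) and WES1 (AT4G27260, also called GH3.5) encode auxin-conjugating enzymes, and IAA30 (AT3G62100) encodes a member of the Aux/IAA repressor family. They were taken by name, with every probe set annotated to them. Each had 1 probe set that the platform annotation lists for that gene alone, so the 4 genes have 4 of the 22746 probe sets that are not controls, and 4 of 13356 genes are covered in this way. All 4 were bright enough to be tested, with mean signals over the 10 arrays of 260, 443, 677 and 39.4. GH3.3, GH3.17 and WES1 lay at percentiles 83.4, 92.0 and 95.6 of all probe sets by mean log2 signal, and IAA30 lay at percentile 44.6, close to the cutoff at percentile 40.

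The study measured vegetative shoot apices by array in 5 groups of 2 samples. Group miR-3TCP (14 DAS, the age code of the labels) overexpressed 35S:miR-3TCP, a designed microRNA directed at TCP5, TCP13 and TCP17, under the broadly active 35S promoter. Group miR319b (17 DAS) overexpressed 35S:319b, a natural microRNA directed at another 5 genes, namely TCP2, TCP3, TCP4, TCP10 and TCP24. Group octa (18 DAS) was taken to combine both microRNAs, as the study's design describes, which lowers all 8 CIN-TCP genes. Group BLS>>TCP4 (14 DAS) had TCP4 driven by BLS, a promoter active in leaves, in the Ler accession, and no Ler control was analysed here. Group Col (14 DAS) had no transgene named in its labels, and the 3 microRNA groups shared its Col accession. Every group was raised on soil under 10 h light periods at 20 °C. Whether the 2 samples of a group came from separate plants or sowings is not said in the labels, so the spread behind each p-value may be technical.

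Auxin acts by joining TIR1/AFB receptors to Aux/IAA proteins, which are then degraded, and this frees the ARF transcription factors that Aux/IAA proteins hold in check. ARF factors activate early genes, among them most Aux/IAA genes and several GH3 genes. GH3 enzymes of this class join indole-3-acetic acid to amino acids and so remove free auxin, which makes them both a readout of auxin response and a brake on it. IAA30 belongs to a small set of Aux/IAA proteins that lack the degron through which the receptors act. CIN-TCP factors limit the growth of leaf margins, and in the apex and young leaf they are known to act on organ boundary genes and on auxin response genes.

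Each array had a median signal of 50 by the authors' scaling, and the number of arrays limits the precision of every value. The BLS>>TCP4 arrays had a wider range of signals than the others, with a 99th percentile of 2684 and 2807 against 1537 to 1886. The 8 CIN-TCP genes themselves were not analysed here, because 0 of them had a listed probe set, so the labels were not checked against the altered genes. Unless another test is named, values are from 1 linear model over the 10 arrays (limma) on log2(signal + 16), with p-values adjusted over 13648 probe sets by the Benjamini-Hochberg method, and "rose" and "fell" are used only where the adjusted p was under 0.05. Log2 changes on this scale understate the change of dim probe sets such as that of IAA30. Fold changes are taken from these log2 changes, so they are not ratios of the mean signals printed. Groups with and without miR319b also differed in age, 17 and 18 against 14 DAS, so age and miR319b cannot be told apart, and neither can the Ler accession and the TCP4 transgene.

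GH3.3, which joins auxin to amino acids and is strongly induced by auxin, fell in BLS>>TCP4 and rose with miR319b. Its signals were 244 and 242 in miR-3TCP, 335 and 392 in miR319b, 431 and 316 in octa, 69.7 and 110.1 in BLS>>TCP4, and 244 and 212 in Col. Both BLS>>TCP4 arrays lay below all 8 others, which was the case for 11.7% of the probe sets tested, while 24.9% lay above all others there. The 4 arrays with miR319b (316 to 431) lay above the 4 arrays without it (212 to 244), miR-3TCP and Col, as did 5.58% of the probe sets tested.

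GH3.3 fell to 89.9 ± 28.6 in BLS>>TCP4, against 228 ± 22.8 in Col (SD, n = 2 each), a log2 change of -1.23 ± 0.21 (SE; 95% interval -1.69 to -0.76; limma adjusted p = 0.00274). This is 2.34-fold lower, and in bulk tissue fewer cells that express the gene and less RNA per cell cannot be told apart. Between the extremes of the design, BLS>>TCP4 was 3.71-fold lower than octa, whose mean was 374 ± 81.4 (log2 change -1.89 ± 0.21, limma adjusted p = 0.000119). Counted from the most negative of the 13648 differences between these groups, GH3.3 had rank 87. Against Col, GH3.3 had log2 changes of 0.64 ± 0.21 in miR319b (limma adjusted p = 0.112) and 0.67 ± 0.21 in octa (limma adjusted p = 0.157), and neither passed. With the 8 Col accession arrays fitted alone the miR319b change passed (limma adjusted p = 0.0426).

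Averaged over both genotypes that carry miR319b and both that do not, GH3.3 rose by 0.61 ± 0.15 on the log2 scale, 1.52-fold, from 4 arrays against 4 (95% interval 0.28 to 0.94; limma adjusted p = 0.0305). The exact permutation test of the same 4 arrays against 4, for GH3.3 alone, gave a two-sided p of 0.0286, the smallest it can give. Any probe set without overlap between these arrays reaches that p, with 5.58% of those tested all higher and 12.7% all lower. The p thus restates the lack of overlap, and it treats 2 arrays of each of 2 genotypes as 4 replicates. The limma call was lost without the filter on dim probe sets (adjusted p = 0.0595). It was kept without octa replicate 2 (adjusted p = 0.0344), and was lost without any 1 of the other 7 (log2 changes 0.50 to 0.66, adjusted p = 0.0531 to 0.124). The largest of these p-values came without octa replicate 1, the array with the highest GH3.3 signal. The change in miR-3TCP was 0.09 ± 0.21 (95% interval -0.37 to 0.56, limma adjusted p = 1).

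GH3.17, an enzyme known to conjugate auxin to glutamate and to respond little to added auxin, differed from the rest of the series in BLS>>TCP4. Its signals were 533 and 382 in miR-3TCP, 607 and 471 in miR319b, 505 and 482 in octa, 218 and 243 in BLS>>TCP4, and 550 and 438 in Col. The BLS>>TCP4 arrays were the lowest of the 10, as for 11.7% of the probe sets tested, and the ranges of the other 4 groups overlapped. GH3.17 fell to 230 ± 17.8 in BLS>>TCP4, against 494 ± 79.2 in Col (log2 change -1.04 ± 0.19, 2.06-fold lower, limma adjusted p = 0.00397). The difference between BLS>>TCP4 and octa was of like size, -1.05 ± 0.19 (limma adjusted p = 0.00228).

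With miR319b present, GH3.17 had a log2 change of 0.12 ± 0.14 (95% interval -0.18 to 0.42, limma adjusted p = 0.657). The unequal change of GH3.3 and GH3.17 was tested by the difference of their log2 signals on each array, which was 0.48 higher with miR319b than without. In an exact permutation test over 4 against 4 arrays (two-sided, smallest possible p 0.0286) this gave p = 0.0571, and 0.257 after Benjamini-Hochberg adjustment over the 6 pairs of the 4 genes. With 4 arrays against 4, a pair that alone had the smallest p would reach only 0.171 after this adjustment, so the test could hardly pass and does not bear on whether the genes respond alike.

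WES1, an enzyme that conjugates both auxin and salicylic acid, passed in no contrast of the main model. Its signals were 628 and 453 in miR-3TCP, 770 and 659 in miR319b, 676 and 889 in octa, 479 and 641 in BLS>>TCP4, and 926 and 645 in Col. The 2 replicates of a group differed by 15.4% to 35.8% of their mean, and the highest signal of the series came from Col. WES1 had 541 ± 124 in miR-3TCP and 560 ± 115 in BLS>>TCP4, against 786 ± 199 in Col (SD, n = 2 each), with the 2 arrays of each transgenic group below both Col arrays. The gap was narrow, 641 in BLS>>TCP4 against 645 in Col at the nearest, and 19.3% of all probe sets tested had both miR-3TCP arrays below both Col arrays, and 21.9% both BLS>>TCP4 arrays. The log2 changes were -0.52 ± 0.23 (unadjusted p = 0.0489, limma adjusted p = 1) in miR-3TCP and -0.47 ± 0.23 (limma adjusted p = 0.166) in BLS>>TCP4. The 95% interval of the BLS>>TCP4 change was -0.99 to 0.05. Leaving out 1 array moved the miR-3TCP change between -0.78 (without Col replicate 2) and -0.27 (without Col replicate 1), and the BLS>>TCP4 change between -0.72 and -0.21 (without the same arrays). Without miR-3TCP replicate 2 the miR-3TCP change was -0.29 and without BLS>>TCP4 replicate 1 the BLS>>TCP4 change was -0.26, and quantile normalization gave -0.77 in BLS>>TCP4. Between BLS>>TCP4 and octa, WES1 had -0.47 ± 0.23 (limma adjusted p = 0.147), which became -0.92 with quantile normalization (limma adjusted p = 0.0194).

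IAA30, the Aux/IAA gene, was measured by a dim probe set. The filter took the mean log2 signal over all 10 arrays, with a cutoff of 5.41. IAA30 had group means of 6.21 in miR319b and 6.17 in octa. In miR-3TCP, Col and BLS>>TCP4 they were 5.65, 5.61 and 4.93. Averaged over miR-3TCP, Col and BLS>>TCP4 the level lies under the cutoff, so IAA30 passed only through miR319b and octa, where it was high. The calls of IAA30 in BLS>>TCP4 against Col and with miR319b present were lost without the filter. The call in BLS>>TCP4 against octa was kept without it. IAA30 signals were 28.3 and 41.1 in miR-3TCP, 61.8 and 54.3 in miR319b, 61.8 and 50.8 in octa, 16.7 and 12.5 in BLS>>TCP4, and 40.2 and 26.5 in Col. The 4 arrays with miR319b were the highest 4 and the BLS>>TCP4 arrays the lowest 2, with no overlap. Of the probe sets tested, 5.58% had the arrays with miR319b above those of miR-3TCP and Col. The BLS>>TCP4 arrays lay below all 8 others in 11.7%. IAA30 fell to 14.6 ± 2.97 in BLS>>TCP4, against 33.4 ± 9.71 in Col (log2 change -0.68 ± 0.19, 95% interval -1.11 to -0.25, limma adjusted p = 0.0276). The call was lost without Col replicate 1 (-0.48, adjusted p = 0.190), without BLS>>TCP4 replicate 2 (-0.58, adjusted p = 0.0890), without the filter on dim probe sets (adjusted p = 0.0521) and with only these 4 arrays fitted (adjusted p = 0.0895). With a pseudocount of 1 in place of 16 the change was -1.12, and with 64 it was -0.31.

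The difference of IAA30 between BLS>>TCP4 and octa, -1.24 ± 0.19 (limma adjusted p = 0.000859), passed under every alternative that tested it. Its size depends on the pseudocount, with -1.88 for 1 and -0.61 for 64. With miR319b present IAA30 rose by 0.56 ± 0.14 on the log2 scale (1.47-fold, 95% interval 0.26 to 0.86, limma adjusted p = 0.0298). The arrays with miR319b are those through which IAA30 passed the filter, so this call is a description only. The exact permutation test for IAA30 alone gave the same smallest possible two-sided p of 0.0286 as for GH3.3. It likewise only restates the lack of overlap between these arrays. Leaving out 1 array kept that call without Col replicate 1 or miR-3TCP replicate 2 (adjusted p = 0.0289 and 0.0471) and lost it without the filter (adjusted p = 0.0690) and without any 1 of the other 6 (log2 changes 0.46 to 0.61, adjusted p = 0.0574 to 0.122). Against Col alone the changes were 0.60 ± 0.19 in miR319b (limma adjusted p = 0.107) and 0.56 ± 0.19 in octa (limma adjusted p = 0.197).

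**Figure D1:**
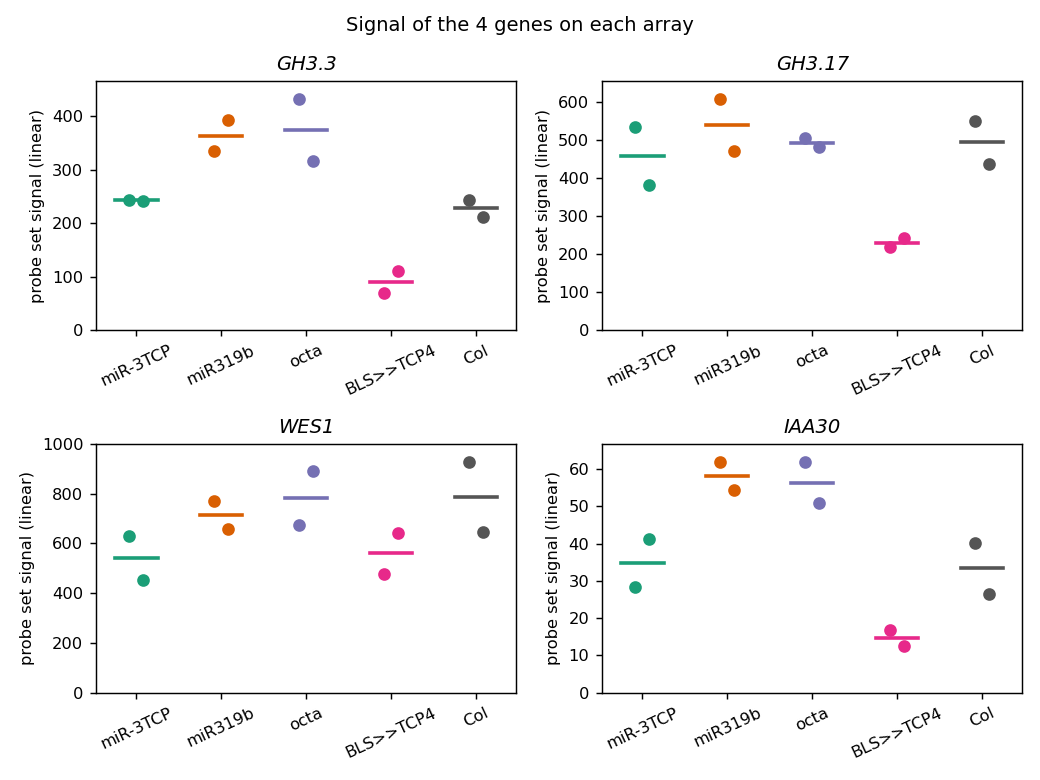
Probe set signal (linear scale, y axis from 0) of GH3.3, GH3.17, WES1 and IAA30 in the 5 groups. Points are arrays, 2 in each group, and horizontal lines are group means. GH3.3 and IAA30 have all 4 miR319b and octa arrays above the miR-3TCP and Col arrays and both BLS>>TCP4 arrays at the bottom, GH3.17 has only the BLS>>TCP4 arrays apart, and the WES1 groups spread widely.

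Set side by side, 3 of the 4 genes fell in BLS>>TCP4 against Col, in a comparison where 25.9% of all probe sets tested were called, 8.61% lower and 17.3% higher. Against octa the same 3, GH3.3, GH3.17 and IAA30, fell, where 33.9% were called, 9.81% lower and 24.1% higher. The same 3 fell against miR319b (31.9% called, 10.8% lower and 21.2% higher) and against miR-3TCP (23.6% called, 7.52% lower and 16.1% higher). With miR319b present 2 of the 4 rose, where 9.61% were called, 2.36% higher and 7.25% lower. Of these 2 genes, IAA30 had passed the filter only through the groups with miR319b. Against Col alone, 0 of 4 were called in miR319b by limma (3.8% of probe sets called, 1.16% higher and 2.64% lower), 0 of 4 in octa (1.8%, 0.271% higher and 1.52% lower) and 0 of 4 in miR-3TCP (0.00733%, all lower). Before adjustment the limma p of GH3.3 and IAA30 was 0.00983 to 0.0153 in miR319b and octa, and that of WES1 in miR-3TCP was 0.0489. The contrasts with Col share its 2 arrays, and those with octa or BLS>>TCP4 share theirs, so the comparisons are not independent of one another. The members were chosen with earlier results of these data known, so these counts are descriptions.

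Adding one microRNA to the other was compared through octa. Between octa and miR319b the log2 differences were 0.03 for GH3.3, -0.11 for GH3.17, 0.12 for WES1 and -0.04 for IAA30, each with a standard error of 0.19 to 0.23, and 0 of 4 were called by limma (0% of probe sets). Their 95% intervals together ran from -0.54 (GH3.17) to 0.64 (WES1), and 1342 probe sets had an unadjusted p under 0.05. Between octa and miR-3TCP the differences were 0.57 ± 0.21, 0.12 ± 0.19, 0.53 ± 0.23 and 0.52 ± 0.19 in the same order of genes, and 0 of 4 passed (2.42% of probe sets called, 0.308% higher and 2.11% lower), while GH3.3, WES1 and IAA30 had an unadjusted p under 0.05. A difference of the miR-3TCP effect with and without miR319b was not called for any of the 4 (limma adjusted p = 0.741 to 0.999, 0.00733% of probe sets called). WES1 had the largest such difference, 0.64 ± 0.33, with a 95% interval from -0.09 to 1.37.

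Ordered by mean log2 level, GH3.3 ran octa, miR319b, miR-3TCP, Col and BLS>>TCP4, and IAA30 ran miR319b, octa, miR-3TCP, Col and BLS>>TCP4. GH3.17 ran miR319b, octa, Col, miR-3TCP and BLS>>TCP4, and WES1 ran octa, Col, miR319b, BLS>>TCP4 and miR-3TCP. Of the 16 neighbouring pairs in these orders, 3 differed by limma, each the last step down to BLS>>TCP4, from Col for GH3.3 and IAA30 and from miR-3TCP for GH3.17 (-0.93 ± 0.19, adjusted p = 0.00723). The step from miR319b down to miR-3TCP in GH3.3 was 0.55 ± 0.21 (limma adjusted p = 0.182, in a contrast with 3.72% of probe sets called, 1.06% higher and 2.67% lower in miR319b), and that from octa down to miR-3TCP in IAA30 was 0.52 ± 0.19 (limma adjusted p = 0.247). The other 11 pairs had unadjusted differences smaller than these, and the order within them is not resolved.

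**Figure D2:**
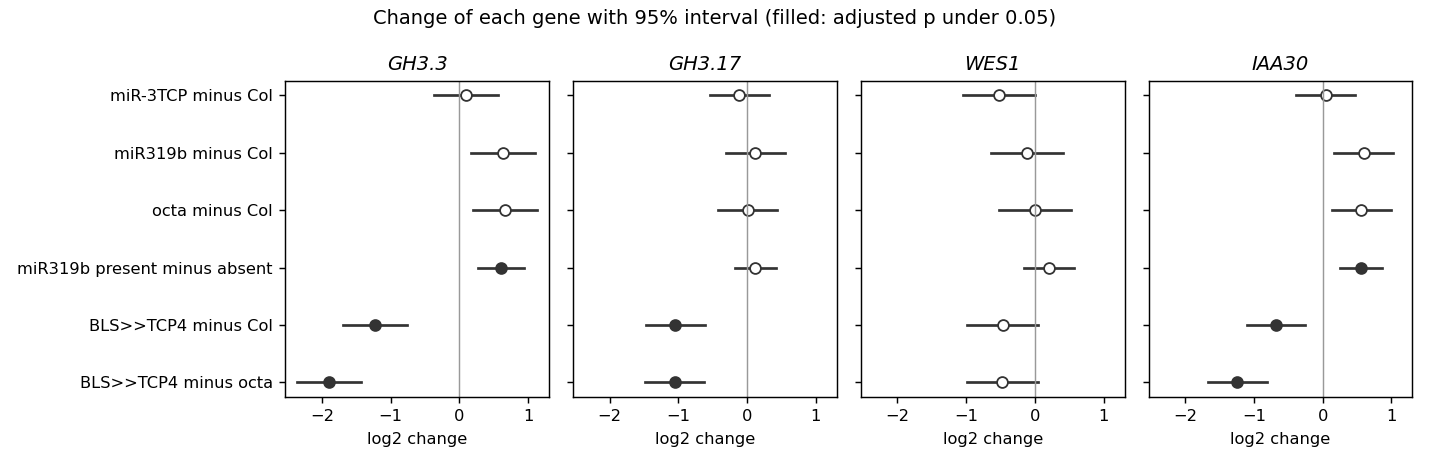
Log2 change (x axis, on log2(signal + 16)) of each of the 4 genes in 6 contrasts, with 95% intervals from the model of all 10 arrays. Filled points had an adjusted p under 0.05, which holds for GH3.3, GH3.17 and IAA30 in both BLS>>TCP4 contrasts and for GH3.3 and IAA30 with miR319b present, and for no WES1 value.

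Other genes of auxin metabolism and signalling were read from 7 lists of auxin genes made by role. Of 157 genes in these lists, 19 had a probe set listed for them alone and 9 were bright enough to test, the 4 above and 5 others. Auxin response factors, receptors and transport genes had 0 members tested. The counts over all 9 include the 4 genes chosen with earlier results known, so the other 5 are given apart. With miR319b present, 1 of these 5 rose and 1 fell, where 2.36% of probe sets rose and 7.25% fell, and their median log2 change was -0.31 against -0.03 over all probe sets tested. Over all 9 the median was 0.20, with 3 higher and 1 lower, so the sign of the median turns on the 4 genes. In BLS>>TCP4 against octa 2 of the 5 rose and 1 fell (24.1% and 9.81% of probe sets), with a median of -0.02 against 0.14 over all probe sets and -0.61 over all 9. In BLS>>TCP4 against Col 0 of the 5 were called by limma (25.9% of probe sets), with a median of 0.19 against 0.10 over all probe sets and -0.26 over all 9.

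The 2 auxin synthesis genes tested, both encoding YUCCA flavin monooxygenases that make indole-3-acetic acid, moved in opposite directions. YUC4, known for a part in lateral organ development, had 83.9 and 76.2 in miR319b, 94.0 and 79.8 in octa, 27.5 and 48.8 in BLS>>TCP4, 65.5 and 59.4 in miR-3TCP, and 45.1 and 44.9 in Col. It rose with miR319b present (0.52 ± 0.13, limma adjusted p = 0.0355) and fell in BLS>>TCP4 against octa (-0.95 ± 0.19, limma adjusted p = 0.00334). YUC4 thus had its 4 arrays with miR319b above those of miR-3TCP and Col, as had GH3.3, IAA30 and 5.58% of the probe sets tested. Its miR319b call was lost without any 1 of the 8 arrays (adjusted p = 0.0675 to 0.140) and without the filter (adjusted p = 0.0829).

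YUC2 had 23.9 and 25.1 in miR319b, 20.9 and 30.3 in octa, 71.4 and 61.1 in BLS>>TCP4, 35.1 and 39.97 in miR-3TCP, and 45.0 and 49.7 in Col. It fell with miR319b present (-0.51 ± 0.11, limma adjusted p = 0.0191) and rose in BLS>>TCP4 against octa (0.99 ± 0.16, limma adjusted p = 0.000986). The miR319b call was lost when 1 of 5 arrays was left out, Col replicate 2, miR-3TCP replicate 2, either miR319b replicate or octa replicate 1 (adjusted p = 0.0549 to 0.0953). Its 4 arrays with miR319b all lay below the 4 without, as did 12.7% of the probe sets tested.

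Within the GH3 family, 5 of 19 genes were listed and 4 tested, the fourth being GH3.9. GH3.9 had 34.4 and 19.0 in miR319b, 35.2 and 42.7 in octa, 65.8 and 89.5 in BLS>>TCP4, 63.8 and 43.4 in miR-3TCP, and 62.6 and 37.0 in Col. Its change in BLS>>TCP4 was 0.52 ± 0.25 against Col (limma adjusted p = 0.155) and 0.76 ± 0.25 against octa (limma adjusted p = 0.0410), opposite in sign to GH3.3 and GH3.17. The call against octa was lost with a pseudocount of 1, without the filter and with median centring (adjusted p = 0.0552 to 0.0776). It was also lost without octa replicate 1 (0.66), octa replicate 2 (0.86) or BLS>>TCP4 replicate 2 (0.58), with adjusted p = 0.0918 to 0.176. GH3.1 stayed between 0.901 and 7.28 and was not tested.

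Of 29 Aux/IAA genes, 7 were listed and 2 tested, IAA30 and IAA18. IAA18 lay between 191 and 283 on all arrays and had log2 changes of -0.31 ± 0.10 with miR319b present (limma adjusted p = 0.0964, and 0.0436 with the 8 Col accession arrays fitted alone) and -0.26 ± 0.15 in BLS>>TCP4 against Col (limma adjusted p = 0.210). IAA20, which like IAA30 lacks the degron, and IAA31 were below the cutoff, with signals of 0.957 to 18.5 and 2.61 to 11.9. UGT74D1, a glucosyltransferase that attaches glucose to auxin, had 252 and 305 in miR319b, 359 and 280 in octa, 242 and 169 in BLS>>TCP4, 187 and 227 in miR-3TCP, and 223 and 137 in Col. Its change with miR319b present was 0.60 ± 0.17 (limma adjusted p = 0.0574), which did not pass, and it passed with quantile normalization, with the 8 Col accession arrays alone and without Col replicate 1 (adjusted p = 0.0298 to 0.0337).

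**Figure D3:**
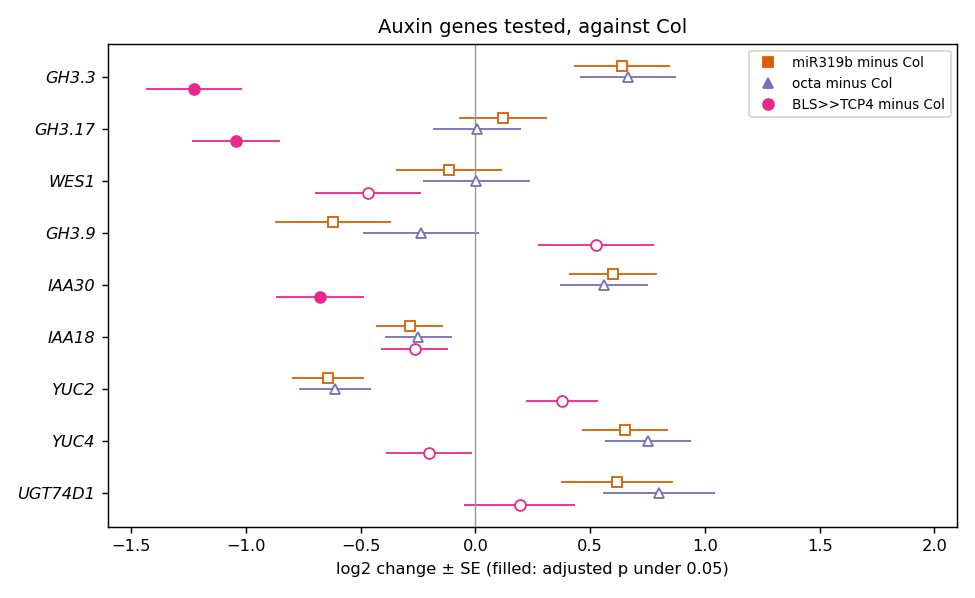
Log2 change against Col (x axis, mean ± SE of the model, on log2(signal + 16)) of the 9 auxin genes tested, for miR319b, octa and BLS>>TCP4. Filled symbols had an adjusted p under 0.05, which holds for GH3.3, GH3.17 and IAA30 in BLS>>TCP4.

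Markers of other tissues were read on the same arrays. Of 6 leaf mesophyll markers 1 had a listed probe set, RCA of Rubisco activase, with 6010 and 6275 in BLS>>TCP4, against 2901 and 2992 in Col (limma adjusted p = 3.59e-05). Of 6 root markers, PYK10 alone was listed, with 992 and 1508 in BLS>>TCP4 against 1886 and 1917 in Col (limma adjusted p = 0.0203). In Col these signals lay above the 99th percentile of the arrays (1688 and 1755). The tissue was shoot apices, so PYK10 was not taken as a measure of root content. Of 5 stomatal lineage markers 3 were listed, and they did not go one way. MUTE had 37.2 and 34.1 in BLS>>TCP4 against 2.39 and 7.59 in Col and was too dim on average to be tested. SPCH had 131 and 62.0 in BLS>>TCP4 against 162 and 171 in Col (limma adjusted p = 0.0731), and FMA had 48.0 and 55.3 in BLS>>TCP4 against 48.5 and 49.4 in Col (limma adjusted p = 0.789). Summed, the 3 gave 151 to 216 in BLS>>TCP4 and 213 to 228 in Col, with SPCH the brightest of the 3 on each of these arrays. Of 4 trichome markers 2 were listed. GIS had 60.7 and 35.9 in BLS>>TCP4 against 20.3 and 23.4 in Col (limma adjusted p = 0.0485), TRY was not tested, and the 2 summed to 54.6 to 85.1 in BLS>>TCP4 and 40.2 to 41.2 in Col. Their part in the falls of GH3.3, GH3.17 and IAA30 was not tested. For the rises with miR319b, RCA was nearly level, with 2927 and 2996 in miR319b, 2780 and 2869 in octa, 2787 and 2863 in miR-3TCP, and 2901 and 2992 in Col. The stomatal sums ran from 141 to 212 with miR319b and from 192 to 231 without it. The trichome sums ran from 32.3 to 64.2 with miR319b and from 40.2 to 51.2 without it. PYK10 ran from 1853 to 2113 with miR319b and from 1828 to 2032.5 without it. Whether these markers bear on the rises was not tested. CLV3, the 1 shoot meristem marker listed of 6, was dim throughout, at 0.654 to 7.26, and 0 of 6 flower markers and 0 of 4 vascular markers were listed, so those tissues were not checked.

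Genes with the profile most like each of the 4 were found by Pearson's r over the 10 arrays on log2(signal + 16), among probe sets listed for 1 gene whose spread was at least that of the gene divided by 2. For GH3.3 they were AT1G78210 (r = 0.988), AT4G29030 (0.973) and AT2G47680 (0.972), and over the 8 Col accession arrays r was 0.955, 0.849 and 0.851. AT1G78210 had 375 and 446 in miR319b, 487 and 346 in octa, 106 and 136 in BLS>>TCP4, 255 and 258 in miR-3TCP, and 315 and 269 in Col, thus repeating the order of GH3.3 between replicates of every group but miR-3TCP. For IAA30 they were AT4G10270 (0.967), AT5G49500 (0.960) and AT4G20320 (0.951), with 0.928, 0.961 and 0.904 over the 8 arrays.

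For GH3.17 they were AT2G37050 (0.985), the serine carboxypeptidase-like gene SCPL27 (0.978) and AT1G59960 (0.974), with 0.907, 0.918 and 0.794 over the 8 arrays. For WES1 they were the cytochrome P450 gene CYP71B5 (0.882), AT2G05540 (0.873) and AT1G27850 (0.833), and 0 probe sets reached r = 0.9, against 65 of 1491 for GH3.3, 116 of 3812 for GH3.17 and 39 of 3322 for IAA30. None of these 12 genes is in the auxin lists. The arrays share the scaling and the gap between the accessions, and the correlations are descriptions over 10 arrays of 5 groups.

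**Figure D4:**
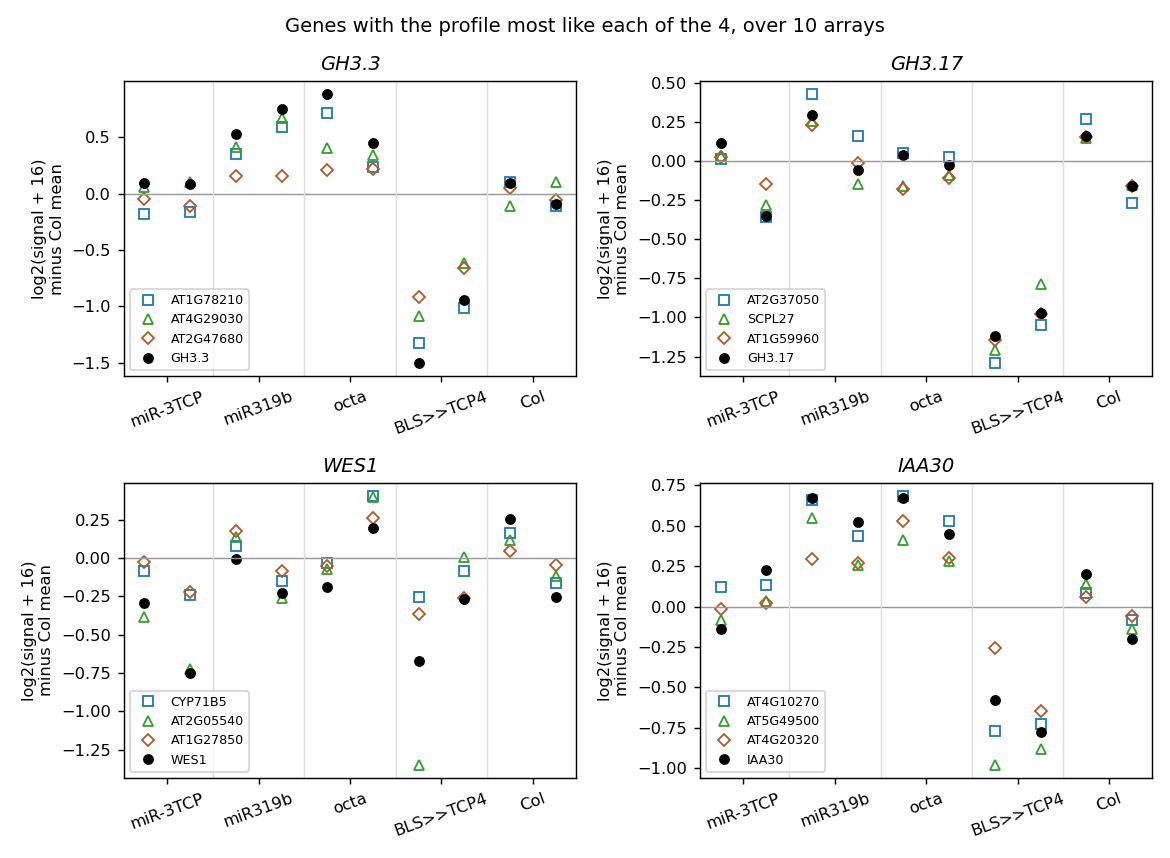
Log2(signal + 16) minus the mean of the 2 Col arrays (y axis) for each of the 4 genes (black) and the 3 genes of most similar profile, on the 10 arrays by group (x axis, 2 arrays a group). The genes most like GH3.3 and IAA30 are high on the miR319b and octa arrays and low on the BLS>>TCP4 arrays, those most like GH3.17 are low on the BLS>>TCP4 arrays, and those most like WES1 follow its differences between replicates.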

How the data were processed

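Per the submitters' processing notes, the deposited intensity values were made with MAS5. They are linear probe set signals with a median of 50 on each array. For the MAS5 version, settings and scan batch: not given in the sources used here. Names came from the platform's annotation, with symbols from the RefSeq gene table of TAIR10.1: 13513 of 22746 had 1 gene, of which 13436 matched.

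From these values, 64 AFFX controls were removed, log2(signal + 16) was taken and probe sets at or above percentile 40 of mean log2 signal (13648) were kept. All 10 arrays entered 1 limma 3.58.1 model in R 4.3.3 (a term per group, eBayes with trend, 5 residual degrees of freedom), and probe sets with adjusted p under 0.05 were called. The model was tested on simulated data with independent noise and changes of known size in 1 group. That checks the code and not how well the model suits these arrays. The exact permutation test over arrays was run in Python 3.11.15. The 4 genes, lists and tests were chosen with earlier results of these data known. The genes named are the 4, genes of the auxin and tissue marker lists, and 3 genes of like profile each. A list of organ boundary and CIN-TCP target genes was also read and its genes are not named here. Of its 3 tested genes, 1 was called higher and 1 lower in BLS>>TCP4 against Col (17.3% and 8.61% of probe sets). Alternatives were pseudocounts of 1 and 64, no filter or percentile 60, quantile normalization, median centring, no trend, fewer arrays, a replicate block and leaving out each array.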

Additional observations from a re-analysis of the deposited data

How the results depend on the processing

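The falls of GH3.3 and GH3.17 in BLS>>TCP4 against Col, and of GH3.3, GH3.17 and IAA30 against octa, passed in every alternative that tested them. Over the 4 genes, 468 alternative values kept direction and side of the threshold, 19 lost a call, 2 gained one and 30 changed sign, the last all among differences that were not called. The number of the 4 genes called in miR319b against Col was 1 with the 8 Col accession arrays. With miR319b present it was 0 without the filter, 1 with the filter at percentile 60, where IAA30 was not tested, and 0 to 1 when 1 array was left out. For these changes of call the cause was not tested, beyond the smaller number of arrays or the different set of probe sets tested. Whether replicate numbers pair the samples is not settled by the labels or by the values. Replicate 1 deviations correlated between groups at -0.40 (miR319b with octa) to 0.45 (Col with miR-3TCP). A replicate block changed no call of the 4 genes (GH3.3 with miR319b present had adjusted p = 0.0415 by limma). Quantile normalization turned the GH3.3 interaction to 3.32e-05 and split the calls of BLS>>TCP4 against Col into 1220 higher and 1321 lower, against 2355 and 1175, and those against octa into 2037 and 1986, against 3287 and 1339, with the median of all probe sets at -0.01 in place of 0.14. Calls in octa against Col split into 49 higher and 105 lower, against 37 and 208, and with miR319b present into 489 and 875, against 322 and 989. Over all settings but leaving out 1 array, calls ranged over 238 to 1332 in miR319b against Col (518 as reported), 74 to 557 in octa against Col (245), 84 to 592 in octa against miR-3TCP (330), 1755 to 3687 in BLS>>TCP4 against Col (3530), 3025 to 5074 in BLS>>TCP4 against octa (4626) and 994 to 2000 with miR319b present (1311). With 1 array left out the same counts were 7 to 57, 5 to 11, 6 to 19, 1649 to 3807, 3045 to 5049 and 520 to 969. Leaving out 1 array also gave both signs for differences that were not called. For GH3.17 these ran from -0.23 to 0.24 in the interaction, -0.35 to 0.12 in miR-3TCP, -0.0591 to 0.30 in miR319b and -0.15 to 0.17 in octa, each against Col, -0.11 to 0.36 in octa against miR-3TCP and -0.29 to 0.0652 in octa against miR319b. For GH3.3 they ran from -0.28 to 0.15 in the interaction, -0.00348 to 0.19 in miR-3TCP against Col and -0.19 to 0.24 in octa against miR319b. For IAA30 they ran from -0.28 to 0.12, -0.16 to 0.24 and -0.15 to 0.0723 in these 3 contrasts. For WES1 they ran from -0.37 to 0.14 in miR319b and -0.25 to 0.26 in octa against Col, and -0.0753 to 0.31 in octa against miR319b. In BLS>>TCP4, IAA18 ran from -0.15 to 0.12 against octa, UGT74D1 from -0.13 to 0.51 and YUC4 from -0.49 to 0.0855 against Col.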
